A study of Mus musculus with 17 samples.

Results

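The genes described here encode the proteins of the synaptonemal complex, the HORMA-domain proteins of the meiotic chromosome axis and the ATPase that acts on those HORMA proteins. Members were the rows of the deposited gene table whose symbol was 1 of 10 fixed names, Sycp1, Sycp2, Sycp3, Syce1, Syce2, Syce3, Tex12, Hormad1, Hormad2 and Trip13. All 10 were listed among 23282 genes, and all 10 passed the filter on low values in every comparison. RNA-seq was done on 3 stages of germ cells sorted by FACS from C57BL/6 mouse testes: spermatogonia (SPG), spermatocytes in pre-leptotene (PreL) and spermatocytes in leptotene or zygotene (LZ). The 17 libraries were built with Smart-seq2, a protocol for polyadenylated RNA. The WT group came from wild-type mice. The SKO group came from mice in which Stra8-Cre, a knock-in expressed in germ cells, removed floxed exons 4 and 5 of Nat10. This gene encodes an RNA acetyltransferase that writes N4-acetylcytidine. The study writes the SKO genotype as Nat10 fl/-;Stra8-Cre, with 1 floxed allele and 1 allele marked as lost. There were 3 WT and 3 SKO libraries of SPG, 3 and 3 of PreL, and 2 and 3 of LZ. The age of the sorted mice is not given in the sources used here. The study calls the libraries of a group biological replicates but does not say whether each came from a separate mouse, so the p-values measure the spread between these libraries. Whether the WT mice carried Cre is likewise not given.

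In leptonema, axial elements made of SYCP2 and SYCP3 form along each pair of sister chromatids. In zygonema, the transverse filament protein SYCP1 joins the axes of homologous chromosomes, and the central element proteins SYCE1, SYCE2, SYCE3 and TEX12 hold the filaments together in the middle of the complex. HORMAD1 and HORMAD2 sit on axes that are not yet joined and are removed on synapsis by TRIP13. Textbook descriptions of male meiosis place the transcription of most of these genes at the entry into meiosis, before the structure itself is seen.

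Nat10, the targeted gene, was lower in the SKO libraries of every stage. Its normalised reads, which are reads brought to 1 scale over the 17 libraries by median-of-ratios size factors, were 758, 679.9 and 799 in WT SPG against 318, 438 and 469.7 in SKO SPG, 751, 823 and 542 in WT PreL against 316, 284 and 232 in SKO PreL, and 546 and 724 in WT LZ against 245, 184 and 255 in SKO LZ. The genotypes did not overlap in any stage. Fold changes, and counts of genes whose groups do not overlap, use size factors of the compared libraries alone, which can differ slightly from that scale. The log2 fold change, SKO minus WT, was -0.87 ± 0.24 (SE) in SPG, -1.29 ± 0.23 in PreL and -1.47 ± 0.29 in LZ. These reads cover the whole gene, so that transcripts without exons 4 and 5 are still counted.

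The libraries held 5812380 to 13820953 reads, with the fewest in SKO LZ. Markers of other cells moved with genotype and stage, as the plot of marker lists shows, and their part in the results below was not tested. The summed level of 10 late spermatocyte genes was 3891 and 6846 RPM (recovered reads scaled to the same total in every library) in WT LZ and 191 to 203 in SKO LZ, and that of 10 spermatid genes was 639.8 and 1061 in WT LZ and 7.22 to 9.81 in SKO LZ. In SKO LZ, Acrv1 and Odf1 were at 0 in every library. Sertoli cell genes summed to 878 and 1096 RPM in SKO PreL replicates 1 and 2 and to 77.4 in replicate 3, and to 1396 and 298 in the WT LZ libraries. Leydig cell genes were higher in SKO than in WT in each stage, at 62.5 to 225 against 5.61 to 15.5 in SPG. Beside these, 5 germ cell genes summed to between 2831 and 4280.1 RPM in all 17 libraries.

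**Figure D1:**
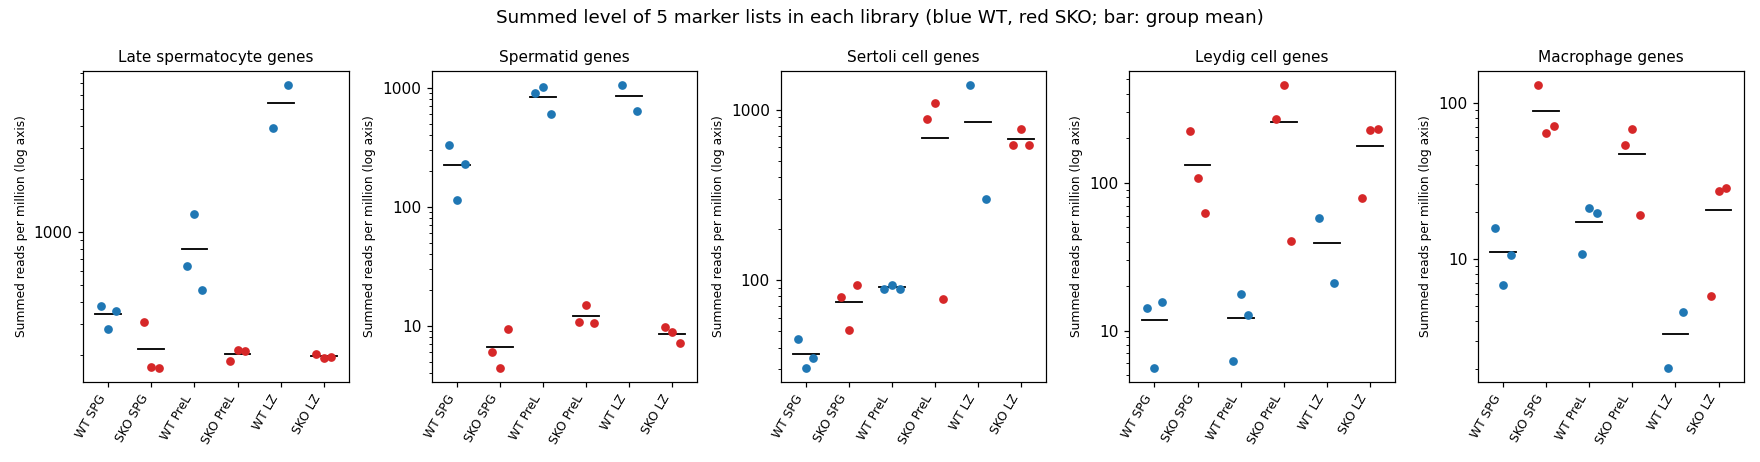
Summed RPM (log axis) of 5 marker lists in each of the 17 libraries, by group, with WT in blue, SKO in red and the group mean as a bar. Late spermatocyte genes reach 3891 and 6846 in WT LZ and stay at 191 to 203 in SKO LZ, and 1 of the 3 SKO PreL libraries, at 77.4, lies far below the other 2 in Sertoli cell genes.

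The DNA before the start sites of the genes was searched for short motifs of transcription factors. All 10 members were matched by symbol to RefSeq promoter windows of GRCm38.p6 (13 windows, since 3 genes have 2 start sites, whose windows overlap), and the 250 bases upstream of each start were searched on both strands. The E-box CACGTG was found in 6 of the 13 windows, those of 5 genes (Sycp1, Sycp3, Syce2 in 1 of its 2 windows, Tex12 and Hormad1), and in 6.02% of 32817 promoter windows. An E2F core, TTCCCGC or TTGGCGC, was found in 5 of the 13, those of 4 genes (Sycp3, Syce2, Tex12 and Hormad1), and in 5.61% of all windows. The stretches below are shown because 4 of them carry these letters and the 5th, that of Syce1, carries neither in its window. Capitals mark CACGTG and the E2F core on either strand, and the 2 kinds of match do not overlap. All stretches are upstream of the first annotated exon and are written 5′ to 3′ on the strand of the gene, at chr3:95559577-95559676 (Hormad1, plus strand), chr3:102936101-102936200 (Sycp1, minus), chr10:88459437-88459567 (Sycp3, plus), chr9:50561328-50561418 (Tex12, minus) and chr7:140787855-140787954 (Syce1, minus).
Hormad1: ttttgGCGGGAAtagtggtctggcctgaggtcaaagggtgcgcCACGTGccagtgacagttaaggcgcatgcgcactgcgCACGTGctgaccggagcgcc
Sycp1: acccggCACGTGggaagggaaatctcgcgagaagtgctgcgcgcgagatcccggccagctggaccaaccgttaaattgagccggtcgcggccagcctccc
Sycp3: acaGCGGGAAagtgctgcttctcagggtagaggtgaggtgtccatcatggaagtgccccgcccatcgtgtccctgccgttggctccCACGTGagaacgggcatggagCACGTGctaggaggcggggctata
Tex12: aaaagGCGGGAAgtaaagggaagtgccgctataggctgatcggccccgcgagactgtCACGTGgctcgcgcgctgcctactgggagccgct
Syce1: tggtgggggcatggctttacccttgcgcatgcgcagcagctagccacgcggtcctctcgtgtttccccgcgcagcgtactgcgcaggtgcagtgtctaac
The E-boxes of Hormad1 begin at -57 and -20, and those of Sycp3 at -64 and -43, counted from the base before the start site as -1. CCTCAG was in 5 of the 13 windows and 22.3% of all windows, a MYB core (TAACNG or CAACNG) in 10 and 43.1%, a CRE half-site (TGACG) in 3 and 17.7%, a GC box (GGGCGG) in 7 and 32.7%, and CCAAT in 1 and 33.8%. A match is a run of letters and was not tested for binding.

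Reads of all 10 genes were already found in the WT SPG libraries, where Hormad2 had 144 to 313 reads in a library. Those libraries also held spermatid genes at 115 to 334 RPM and late spermatocyte genes at 282 to 380. There, 8 genes of undifferentiated spermatogonia summed to 16.6 to 27.3 RPM. The same genes summed to 21.4 to 37.4 in WT PreL and to 65.5 and 113.9 in WT LZ, so they were not highest in WT SPG. How far cells of other stages contributed reads of the members was not tested. Per kilobase of merged exons, Sycp3 had the highest level in WT SPG, with 13328 ± 673 normalised reads (SD, n = 3), followed by Syce2 with 11313 ± 2589 and Sycp1 with 5894 ± 405. Sycp2, Hormad2 and Trip13 were the 3 lowest, and Hormad2, with 147 ± 40 per kilobase, was below every other member by this measure in each group. Sycp3 remained first in all 6 groups and reached 57146 ± 13010 per kilobase in SKO PreL.

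From SPG to PreL in WT, the axial element genes and the HORMA gene Hormad1 rose. Hormad1 had 3449, 2654 and 3432 normalised reads in WT SPG and 7707, 6179.9 and 7355 in WT PreL. The lowest PreL library thus lay above the highest SPG library, and the log2 fold change was 1.12 ± 0.15 (SE, adjusted p = 0.00417). Hormad1 was the 1 member past both thresholds (adjusted p under 0.05 and a log2 fold change above 1 in either direction), where 2.54% of the genes tested were called higher and 1.21% lower. Sycp2 (0.99 ± 0.15), Sycp3 (0.92 ± 0.13), Tex12 (0.81 ± 0.13) and Syce3 (0.63 ± 0.15) passed on p alone, with adjusted p from 0.00494 to 0.0326. Sycp1, Syce1, Syce2, Hormad2 and Trip13 did not pass, with log2 fold changes from -0.05 in Trip13 to 0.44 in Hormad2. In all, 7 members had every PreL library above every SPG library, as did 15.6% of all genes, and 0 the reverse (14.8%). The median of the 10 members was 0.53, against 0.01 over all genes tested. Without WT SPG replicate 2, the log2 fold change of Hormad1 was 0.99, so that it was no longer called.

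The next step in WT, from PreL to LZ, split the members. Syce2 and Trip13 fell. By limma, edgeR and DESeq2 alike, 0 members were called higher, and 2 were higher at an unadjusted p under 0.05. Syce2, a central element gene, had 21261, 27124 and 41384 normalised reads in WT PreL and 11085 and 17207 in WT LZ, a log2 fold change of -1.20 ± 0.31 (adjusted p = 0.0164). Trip13 had 3854, 3501 and 3123 in WT PreL and 1954 and 1688 in WT LZ, and its log2 fold change was -1.08 ± 0.20 (adjusted p = 0.00465). In both genes the LZ libraries lay below all PreL libraries. Over all genes 7.8% were called lower in this step and 18.8% higher, and 28.8% lay below and 34.2% above without overlap, against 2 and 4 members. The 4 with both LZ libraries above all PreL libraries were Sycp2 (0.67 ± 0.24, adjusted p = 0.0551), Syce3 (0.53 ± 0.21, adjusted p = 0.0756), Hormad1 (0.36 ± 0.20, adjusted p = 0.183) and Hormad2 (0.39 ± 0.29, adjusted p = 0.321), and none of them passed. Syce1 was at 0.56 ± 0.26 (adjusted p = 0.117), with overlap. With WT LZ replicate 3 left out, a fit that has 1 LZ library and takes its spread from the PreL group, neither Syce2 (adjusted p = 0.0521) nor Trip13 (log2 fold change -0.96) was called. On the ERCC-calibrated values, which keep differences in RNA per cell input, the median of all genes rose from 0.13 to 1.86 in this step, and Syce2 (0.63) and Trip13 (0.75) were higher in LZ. Their fall on the main scale is therefore relative to the other transcripts of the library.

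**Figure D2:**
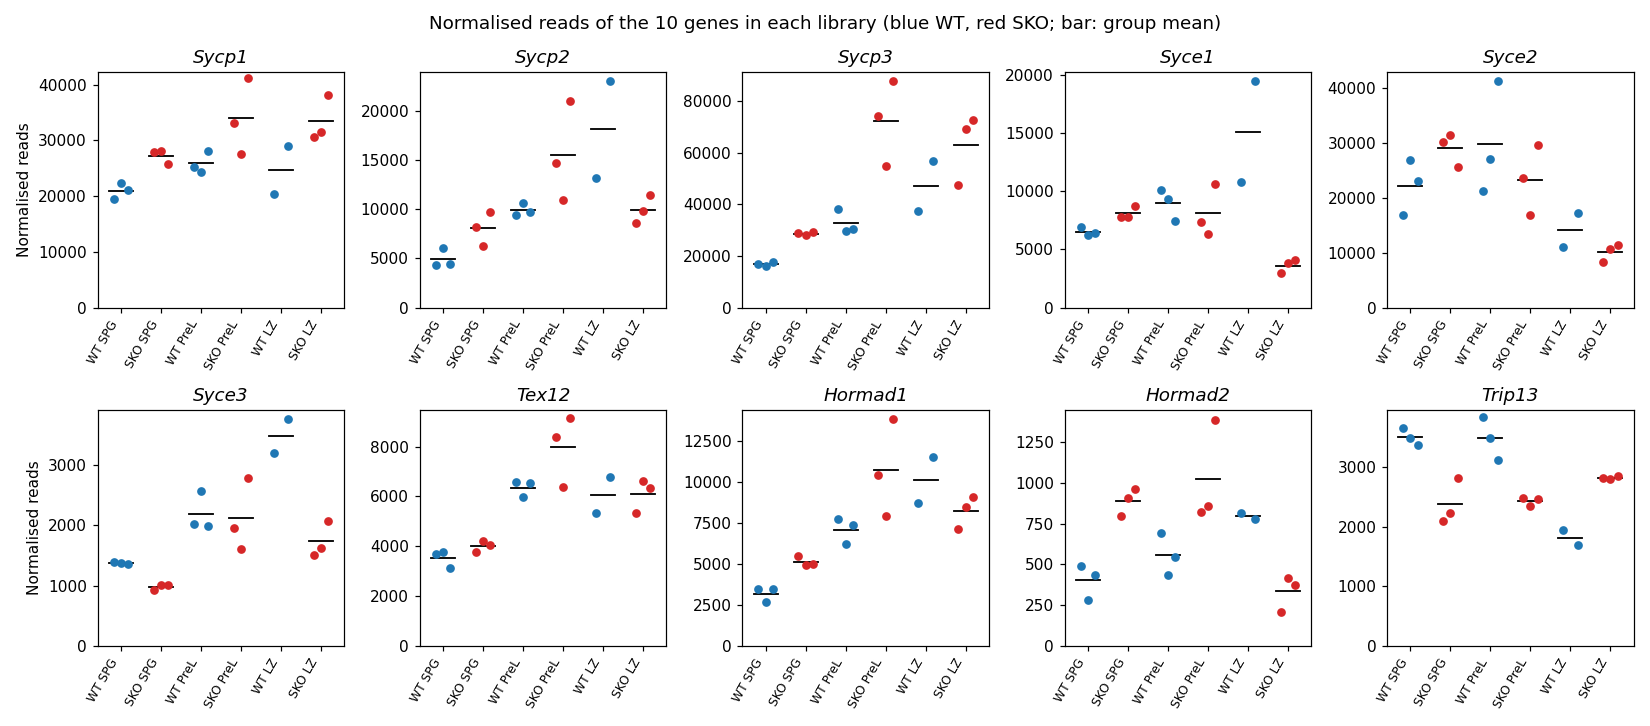
Normalised reads (linear axis from 0) of each of the 10 genes in the 17 libraries, by group, with WT in blue, SKO in red and the group mean as a bar. Syce1 lies between 2935 and 4046 in SKO LZ and at 10791 and 19422 in WT LZ, whereas Tex12 lies between 5332 and 6799.7 in the LZ libraries of both genotypes.

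In SPG, the loss of Nat10 went with higher levels of several members. Spermatid genes were far lower in SKO in both SPG and PreL, as given above, and their part was not tested. Hormad2, the partner of Hormad1 on unsynapsed axes, had 489, 279.7 and 437 normalised reads in WT SPG and 799, 905 and 964 in SKO SPG. Every SKO library was above every WT library, and the log2 fold change of 1.13 ± 0.25 (SE, adjusted p = 0.0116) made Hormad2 the 1 member called, where 3.95% of all genes were called higher and 2.06% lower. Sycp3 was at 16923, 15960.5 and 17658 in WT and at 28844, 27966 and 29112 in SKO (log2 fold change 0.75 ± 0.10, adjusted p = 0.00067). Hormad1 (0.67 ± 0.14), Sycp2 (0.68 ± 0.17) and Sycp1 (0.36 ± 0.10) also passed on p alone. Trip13 was lower in SKO, with 2095, 2230.1 and 2815 normalised reads against 3669, 3501 and 3380.4 in WT (-0.59 ± 0.14, adjusted p = 0.0194). Every SKO library was above every WT library in 6 members and below in 2, against 15.2% and 14.4% of all genes. The median of the members was 0.38 and that of all genes 0.00. Hormad2 was not called without WT SPG replicate 2 (0.88) or without SKO SPG replicate 4 (adjusted p = 0.0539). The ERCC-calibrated values shifted the median of all genes to -0.25 in SPG, and there Hormad2 was at 0.87 (adjusted p = 0.0523).

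Sycp3 was the member called higher in SKO PreL. It had 38343, 29741 and 30370.4 normalised reads in WT PreL and 74078, 54943 and 87676 in SKO PreL, with no overlap and a log2 fold change of 1.13 ± 0.20 (adjusted p = 0.00536). In this stage 5.32% of all genes were called higher and 5.83% lower. Exons of Sycp3 overlap those of Chpt1, a phospholipid synthesis gene on the opposite strand, over 660 of 1264 bases, and whether reads were assigned by strand is not given. Chpt1 itself was at 1577, 1725 and 1731 in WT PreL and 1684, 1794 and 1521 in SKO PreL, with a log2 fold change of -0.00. Hormad2 was higher (0.85 ± 0.25, adjusted p = 0.0419) and Trip13 lower (-0.51 ± 0.12, adjusted p = 0.0219) on p alone. Syce1, Syce2 and Syce3 had log2 fold changes of -0.16, -0.33 and -0.07 and did not pass. All SKO libraries were above all WT libraries in 4 members and below in 1, against 17.4% and 20% of all genes. The median of the members was 0.35 and that of all genes 0.04.

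SKO PreL replicate 3 had the highest level of 9 of the 10 members in its group, and replicate 2 the lowest of 9. Replicate 3 is also the library with the low Sertoli cell sum. Without it, the log2 fold change of Sycp3 was 0.98 (adjusted p = 0.01) and no member was called. On the ERCC-calibrated values the median of all genes was 0.73 in PreL, and Trip13 changed sign to 0.21 (adjusted p = 0.31). There 6 members were called higher, as were 3459 of the 13132 genes tested. By limma, edgeR and DESeq2, 0 members differed between SPG and PreL in the size of the SKO effect, and 1, Syce2, did so at an unadjusted p under 0.05 (adjusted p = 0.306). Over all genes 0.111% and 0.251% passed that test in the lower and higher direction.

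In LZ, 3 members were called lower in SKO, the central element genes Syce1 and Syce3, and Hormad2. By limma, edgeR and DESeq2 0 were called higher, and 1, Trip13, was higher at an unadjusted p under 0.05. Among all genes 25.8% were called lower and 13.4% higher, so the share of members called lower is close to that of the transcriptome. Syce1 (chr7:140777229-140787852 of GRCm38, minus strand, 13 merged exons in GENCODE vM21, as for the positions that follow) had 10791 and 19422 normalised reads in WT LZ and 2935, 3845 and 4046 in SKO LZ. All SKO libraries were below both WT libraries, and its log2 fold change of -2.03 ± 0.28 (SE, adjusted p = 0.000777) was the largest of the 10 in size in this stage. Hormad2 (chr11:4345814-4441105, minus strand, 14 merged exons) had 813 and 775 in WT and 207, 418 and 376 in SKO (-1.32 ± 0.33, adjusted p = 0.0127), from 38, 118 and 90 reads in the SKO libraries. Syce3 (chr15:89390174-89410503, minus strand, 4 merged exons) had 3197 and 3774 in WT and 1514, 1618 and 2069 in SKO (-1.03 ± 0.19, adjusted p = 0.00352).

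The remaining members differed among themselves in direction. Sycp2 had 13237 and 23077 normalised reads in WT LZ and 8594, 9796 and 11451 in SKO LZ, which passed on p alone (-0.84 ± 0.27, adjusted p = 0.0333). Sycp3, its partner in the axial element, was at 0.42 ± 0.31 and Sycp1 at 0.44 ± 0.24 on the log2 scale, with adjusted p of 0.29 and 0.165. Tex12 was at -0.00 ± 0.18, with 5351 and 6799.7 normalised reads in WT and 5332, 6635 and 6348 in SKO. Syce2 (-0.48 ± 0.24) and Hormad1 (-0.31 ± 0.20) did not pass. Trip13 was higher in SKO LZ, at 2821, 2800.4 and 2859 against 1954 and 1688 in WT (0.62 ± 0.15, adjusted p = 0.0102), with no overlap. The genotypes were apart in 6 members, 4 lower and 2 higher in SKO, against 39.8% and 30.3% of all genes. The median of the members was -0.39 and that of all genes -0.13.

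**Figure D3:**
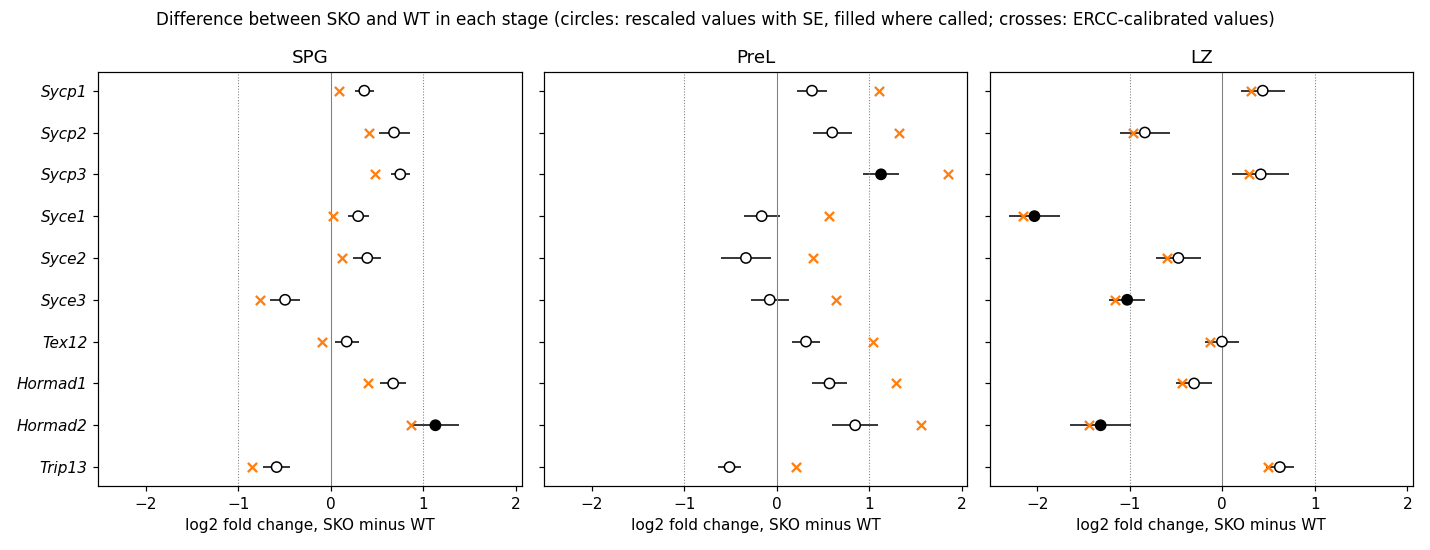
Log2 fold change, SKO minus WT, of the 10 genes in SPG, PreL and LZ. Circles with bars are rescaled values with SE, filled where called (Hormad2 in SPG, Sycp3 in PreL, Syce1, Syce3 and Hormad2 in LZ), and crosses are the ERCC-calibrated values, which lie to the right of the circles in PreL and to their left in SPG and LZ.

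The LZ result depended on single libraries in part. WT LZ replicate 3 had the higher level of 8 of the 10 members, Syce1 and Sycp2 among them. It also had the higher late spermatocyte sum, 6846 RPM against 3891 in replicate 2. SKO LZ replicate 1 had the lowest level of 9 members in its group. Whether these differences are linked was not tested. With WT LZ replicate 3 left out, Syce1 alone was called (log2 fold change of Syce3 -0.91, adjusted p = 0.0559, and of Hormad2 -1.35, adjusted p = 0.121), and with WT LZ replicate 2 left out Hormad2 was not called (adjusted p = 0.108) and Sycp2 was (-1.28, adjusted p = 0.0179). These fits have 1 WT library and take its spread from the SKO group. Syce1 was called in each of them, with log2 fold changes from -2.50 to -1.61 over the libraries left out. Syce3 lay near the fold threshold, and its log2 fold change was -0.97 by edgeR and -0.98 by DESeq2, with adjusted p of 0.00383 and 0.000192. With germ-cell-list scaling, which sets the libraries by a list of germ cell genes, Syce3 was at -0.95 and not called, and by RPM Sycp2 was called as well (-1.22, adjusted p = 0.00116).

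Ratios of reads between 2 genes of a library are free of any scaling between libraries. In WT LZ there were 3.45 and 2.93 reads of Sycp3 per read of Syce1, and in SKO LZ 16.2, 17.93 and 17.95. The same ratio was 3.80, 3.19 and 4.07 in WT PreL and 10.1, 8.69 and 8.27 in SKO PreL, and it was apart in SPG too, at 2.45 to 2.76 in WT and 3.35 to 3.69 in SKO. The pair of axial element genes also separated. Sycp3 reads per read of Sycp2 were 2.81 and 2.47 in WT LZ and 5.54, 7.04 and 6.34 in SKO LZ, and were already apart in PreL, at 2.79 to 4.05 in WT and 4.16 to 5.04 in SKO. In SPG the genotypes overlapped (2.65 to 3.96 and 2.99 to 4.46). Hormad1 reads per read of Hormad2 were 10.7 and 14.8 in WT LZ and 34.4, 20.3 and 24.2 in SKO LZ. They overlapped in PreL (11.1 to 14.2 and 9.20 to 12.7), and in SPG they ran the other way, at 7.05 to 9.49 in WT and 5.14 to 6.82 in SKO.

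**Figure D4:**
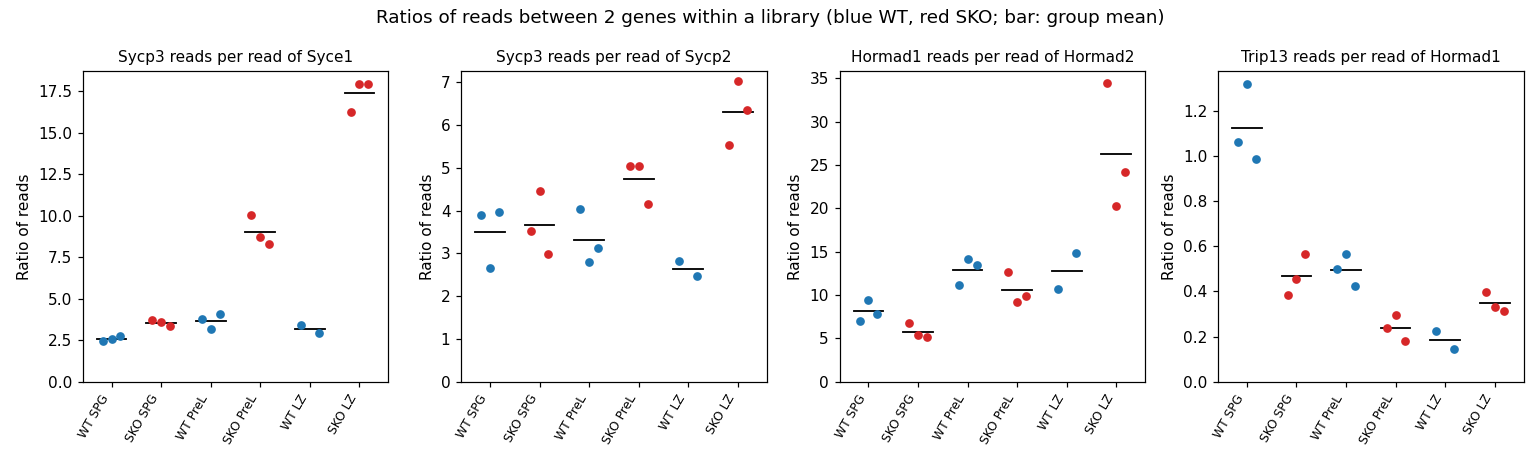
Ratio of reads (linear axis from 0) between 2 genes of the same library, by group, with WT in blue, SKO in red and the group mean as a bar. The Sycp3 to Syce1 ratio is at most 4.07 in WT libraries and 16.2 to 17.95 in SKO LZ, and the Trip13 to Hormad1 ratio is lower in SKO than in WT in SPG and PreL but higher in LZ.

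For 6 of the 10 members the SKO effect differed between PreL and LZ, by the interaction term fitted over all 17 libraries. The effect was lower in LZ for Hormad2 (-2.13 ± 0.42, adjusted p = 0.000567), Syce1 (-1.85 ± 0.30, adjusted p = 0.000104), Sycp2 (-1.42 ± 0.34, adjusted p = 0.00299), Syce3 (-0.93 ± 0.27, adjusted p = 0.0097) and Hormad1 (-0.85 ± 0.26, adjusted p = 0.0151). It was higher for Trip13 alone (1.15 ± 0.19, adjusted p = 0.000121). Over all genes 23.1% passed this test in the lower direction and 15.1% in the higher. Sycp1, Sycp3, Syce2 and Tex12 did not pass, with estimates from -0.69 in Sycp3 (adjusted p = 0.0661) to 0.08 in Sycp1. Trip13 thus stood opposite to the HORMA genes whose proteins it removes: there were 0.985 to 1.32 reads of Trip13 per read of Hormad1 in WT SPG against 0.384 to 0.568 in SKO SPG, and 0.224 and 0.147 in WT LZ against 0.396, 0.331 and 0.315 in SKO LZ. On the ERCC-calibrated values the estimate of Trip13 was 0.28 (adjusted p = 0.403), beside a median of -1.12 over all genes against -0.31 on the main scale.

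Within SKO, the step from SPG to PreL raised 3 members, Sycp3 (1.33 ± 0.17), Syce3 (1.08 ± 0.20) and Hormad1 (1.05 ± 0.18), with 1.63% of all genes called higher and 0.955% lower. Adjusted p was 0.00533, 0.0153 and 0.0131. Sycp2 (0.94 ± 0.23) and Tex12 (0.99 ± 0.15) passed on p alone. The PreL libraries were all above the SPG libraries in 5 members, against 13.7% of all genes, and all below in 0 (14.4%). Without SKO SPG replicate 1 or without SKO PreL replicate 3 the count of members called was 1, and without SKO PreL replicate 2 it was 5. From PreL to LZ, 3 members fell in SKO, Hormad2 (-1.65 ± 0.31), Syce2 (-1.21 ± 0.23) and Syce1 (-1.18 ± 0.22), with adjusted p of 0.00349, 0.00367 and 0.00342, where 6.93% of all genes were called lower and 10.6% higher. By RPM that balance turned, with 2255 genes called lower and 853 higher against 865 and 1319 on the main scale. The LZ libraries lay below all PreL libraries in 3 members and above in 1, against 27.7% and 25.2% of all genes. Syce1 ran from 7358, 6322 and 10597 normalised reads in SKO PreL to 2935, 3845 and 4046 in SKO LZ, with no overlap. Without SKO PreL replicate 3, Syce1 (-0.94) missed the fold threshold, Syce2 fell just short of it, and Hormad2 alone was called. On the ERCC-calibrated values the median of all genes rose from -0.01 to 0.81 in this step, none of the 3 was called, and Syce1 (-0.33), Syce2 (-0.36) and Hormad2 (-0.81) kept their sign.

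SKO LZ was also set against WT PreL, the stage before, since late spermatocyte genes summed to 191 to 203 RPM in the one and 469 to 1271 in the other, below WT LZ in both. Syce1 (-1.36 ± 0.16, adjusted p = 6.5e-05) and Syce2 (-1.57 ± 0.23, adjusted p = 0.000271) were called lower, where 12.1% of all genes were called lower and 17.5% higher. Sycp3 (0.88 ± 0.20) was higher and Hormad2 (-0.81 ± 0.29) and Trip13 (-0.35 ± 0.12) lower on p alone, and Sycp2 was at -0.06 ± 0.14. The libraries were apart in 7 members, 5 lower and 2 higher in SKO LZ, against 30.6% and 29% of all genes. The fall of Syce1 in SKO LZ was thus called against both WT stages on the main scale. On the ERCC-calibrated values, where the median of all genes was 1.51, Syce1 (0.24), Syce2 (0.030), Hormad2 (0.75) and Trip13 (1.25) were higher in SKO LZ than in WT PreL. This comparison and that within WT LZ share the SKO LZ libraries.

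By order of the group means, Syce1 was lowest in SKO LZ and highest in WT LZ, and on the scale of the 17 libraries its values in neither group overlapped those of the neighbouring one, although WT LZ and WT PreL overlapped when scaled alone. Hormad2 was also lowest in SKO LZ, but those libraries overlapped WT SPG, and its 2 highest groups, SKO PreL and SKO SPG, overlapped each other. Trip13 was lowest in WT LZ and highest in WT SPG, which overlapped WT PreL. Sycp3 was lowest in WT SPG and highest in SKO PreL, whose libraries overlapped SKO LZ. Summed over the 10 genes, the members made up 3781 to 3954 RPM in WT SPG, 5221 to 5418 in SKO SPG, 5302 to 5872 in WT PreL, 6779 to 9610.5 in SKO PreL, 5795 and 6729 in WT LZ, and 3634 to 5473 in SKO LZ. By RPM, the sums of the genotypes did not overlap in any stage. In LZ, RPM put the median SKO effect of all genes at -0.50, against -0.13 on the main scale. Whether the sums are apart on the main scale was not tested.

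The pathway around the members was followed with lists that hold no member. Of 18 tested genes of the axis, cohesin, synapsis and recombination machinery, 6 were called lower in SKO LZ and 1 higher, with a median of -0.70, beside the 25.8% and 13.4% of all genes called in those directions and their median of -0.13. The largest fall was in Syce1l (-3.38 ± 0.49), a gene related to Syce1, and the rise was in Six6os1 (1.46 ± 0.21), which encodes a further central element protein. In SKO SPG 1 of 17 and in SKO PreL 2 of 18 were called, and these were higher, as were 3.95% and 5.32% of all genes. Of 7 tested partners of the HORMAD proteins in break formation and checkpoint signalling, 3 had adjusted p under 0.05 in LZ, at log2 fold changes short of the threshold (0.95 in Mei4, -0.85 in Atr and 0.62 in Topbp1). On adjusted p alone, 4273 of the 13724 genes tested in LZ were lower and 2716 higher. Of 5 genes of other HORMA-fold proteins and their TRIP13 adaptor, 2 were called lower in LZ, Mad2l2 (-4.57 ± 0.34) and Mad2l1bp (-1.35 ± 0.37). Mad2l1bp encodes the adaptor through which TRIP13 acts on MAD2. In SKO PreL it was the 1 gene of this list called, and it was higher, as were 5.32% of all genes. Of 14 regulators of meiotic gene expression, 3 were called lower in LZ, led by Tcfl5 (-2.22 ± 0.30), and 2 higher, led by Mga (1.21 ± 0.14). The counts of genes called in these small lists in LZ are to be read against the shares of all genes called. Stra8 itself, whose promoter drives the Cre, was at -0.11 ± 0.14 in LZ. The study describes the Cre line as a knock-in, and whether WT mice carried it is not given. An effect of that allele on Stra8 reads therefore cannot be told apart from one of Nat10 loss. Of the 14 regulators Stra8 alone passed the interaction of SPG and PreL, with a lower SKO minus WT difference in PreL. Over all genes 0.111% passed in that direction. From PreL to LZ, Stra8 was called lower in WT and in SKO, as were 7.8% and 6.93% of all genes.

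The 5 genes with CACGTG before a start site were the members not called in LZ apart from Sycp2 and Trip13, a pattern noticed after the values were seen. Of other genes tested in LZ, 22% of 941 with the motif in the window and 25% of 8775 without it were called lower.

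Across the 17 libraries, Hormad1 ran most closely with Sycp3 among the members (Pearson r = 0.93 of log2 values) and Tex12 with Hormad1 (0.91), whereas Sycp3 and Syce1 were at -0.05 and Trip13 and Sycp2 at -0.59. These values are a description over 6 groups of libraries that share depth and stage. Among 8656 genes averaging 100 or more recovered reads, the gene most like Hormad1 and Tex12 was Hfm1 (0.96 and 0.95), that most like Sycp1 was Six6os1 (0.93), and that most like Syce1 was Pcmt1 (0.97). Syce2 was most like Selk (0.96), Sycp3 like Mrpl48 (0.95), Sycp2 like Cwc15 (0.94), Syce3 like H2afx (0.94), Hormad2 like Prss50 (0.93) and Trip13 like Prdm16 (0.91). The mean of the 10 members was followed most closely by Stk31 (0.93), Inca1 (0.93), Myo9a (0.92), Eaf2 (0.92) and Hfm1 (0.91).

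The split of the calls over all genes moved with the scaling. On the main scale, lower genes made up 34.3% of those called in SKO SPG, 52.3% in SKO PreL and 65.8% in SKO LZ. With germ-cell-list scaling they made up 49.2% and 65.5% in SPG and PreL, and by RPM 79.6% in LZ. On the ERCC-calibrated values the 3 shares were 59.2%, 14.5% and 71.2%. For the steps from SPG to PreL, germ-cell-list scaling gave 44.9% in WT and 51.2% in SKO, against 32.2% and 36.9% on the main scale. By RPM, lower genes were 60.5% of those called in SKO LZ against WT PreL (40.7% on the main scale) and 80.8% of those passing the interaction of PreL and LZ (60.5%), which germ-cell-list scaling put at 48.5%. Of the few genes passing the interaction of SPG and PreL, 30.6% were lower, against 16.1% by TMM and 20% by RPM. The ERCC-calibrated values gave 0.528% from SPG to PreL in SKO, 0.136% and 3.33% from PreL to LZ in WT and SKO (29.3% and 39.6% on the main scale), 5.44% in SKO LZ against WT PreL, and 2.42% and 89.8% for the 2 interactions.

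Several of the 10 genes are among those the study itself displayed from these samples, so their directions are not independent evidence. In bulk libraries of sorted cells, fewer cells of a stage and less RNA per cell cannot be told apart.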

How the data were processed

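RNA of sorted SPG, PreL and LZ cells was sequenced in 17 libraries. Per the labels and the study's methods, reads were mapped to mm10 with TopHat2 2.1.1 and uniquely mapped reads were counted per gene with HTSeq 0.11.2. The submitters' notes also name mm9. The authors deposited these counts as a signal value, each library's counts times a single factor (1 to 10.4) reflecting ERCC spike-in and cell input. All values of each library were whole multiples of that factor, which gave back 100% of the reads.

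From the deposited values, median-of-ratios size factors were computed over the libraries of each comparison, and genes averaging 10 or more recovered reads entered limma 3.58.1 as log2(rescaled value + 10) (with a mean-variance trend, Benjamini-Hochberg adjustment over all genes tested, R 4.3.3). Calls required an adjusted p under 0.05 and a log2 fold change beyond 1 in either direction, and the interactions at an adjusted p under 0.05. Fold changes are on the log2(value + 10) scale and understate those of low genes. Alternatives were the ERCC-calibrated values, TMM, RPM and germ-cell-list scaling, pseudocounts of 1 and 50, the filter dropped or raised to 50 reads, edgeR 4.0.16 and DESeq2 1.42.0 on recovered reads, 1 fit of all libraries, no fold threshold, a replicate block, and each library left out. Replicate pairs differed by more than sampling noise, with a chi-square of 5.88 to 62.4 per degree of freedom. Same-numbered WT and SKO libraries did not deviate together (correlations -0.05 to 0.11), so the numbers were not taken as pairs.

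Positions came from GENCODE vM21 (GRCm38) and promoters from RefSeq, GRCm38.p6. The members and gene lists were chosen with earlier results of these data known. Named genes were the 10 members, Nat10, from each pathway list the called gene with the largest fall and rise in LZ, and by correlation the genes most like the members; Chpt1, the 3 HORMAD partners, Mad2l1bp, Stra8, Acrv1, Odf1, Actg2 and Dmrtb1 were named after their values were seen. Six6os1, Mcmdc2, Meiob, Iho1, Rec114, Atg101, Meioc and Adgre1 are listed under older symbols, and Sycp2l, Ankrd31 and Meiosin were not analysed here. Intervals cover the spread between libraries only, and read depth limits Hormad2 most. Isoforms and protein levels were not analysed here.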

Additional observations from a re-analysis of the deposited data

Results flagged for a closer look

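For 6 genes the SKO effect differed between PreL and LZ by the interaction test over all 17 libraries (limma, adjusted p under 0.05). The difference, LZ minus PreL on the log2 scale, was -1.42 ± 0.34 (SE) in Sycp2, -1.85 ± 0.30 in Syce1, -0.93 ± 0.27 in Syce3, -0.85 ± 0.26 in Hormad1, -2.13 ± 0.42 in Hormad2 and 1.15 ± 0.19 in Trip13. The median over all genes was -0.31. Without WT LZ replicate 3, Hormad1 was at -0.67 and did not pass (adjusted p = 0.0922), where the 1 WT LZ library left is assumed to vary like the other groups. Groups of 2 or 3 libraries are too small to flag a single library.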

How the results depend on the processing

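Of 735 alternative values of the members that passed on p, 665 kept their direction and their side of the call, and 7 reversed, each of them on the ERCC-calibrated values: Trip13 in SKO PreL (0.21), Syce2 (0.63) and Trip13 (0.75) from PreL to LZ in WT, and Syce1 (0.24), Syce2 (0.030), Hormad2 (0.75) and Trip13 (1.25) in SKO LZ against WT PreL. That scaling also changed counts of members called. Higher members numbered 0 in SKO SPG, 6 in SKO PreL, 2 from SPG to PreL and 8 from PreL to LZ in WT. They numbered 9 and 1 in the same steps of SKO, and 7 in SKO LZ against WT PreL. Over all genes tested, the higher ones were in the same order 399 of 12846, 3459 of 13132, 332 of 12657, 10992 of 13759, 5657 of 12882, 4409 of 12477 and 9100 of 12527. Lower members numbered 0 in both steps from PreL to LZ and in SKO LZ against WT PreL. Lower genes there numbered 15 in WT, 152 in SKO and 524 in the last comparison. The interaction of SPG and PreL gave 7 members higher (5938 of 13530 genes). That of PreL and LZ gave 9 lower and 0 higher (6575 and 749 genes). The median over all genes on these values was -0.25 in SPG, 0.73 in PreL, 1.86 from PreL to LZ in WT and 1.51 for SKO LZ against WT PreL, so a sign there follows that shift.

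With germ-cell-list scaling 0 members were called in SKO SPG, 0 in SKO PreL, 2 in SKO LZ (both lower) and 1 from SPG to PreL in SKO. With that scaling 3368 of 13724 genes were lower in SKO LZ, and 175 lower and 167 higher of 12882 in that step. By RPM 4 members were called lower in SKO LZ, as were 4556 of 13724 genes. By RPM and in 1 fit of all libraries, 1 member was lower from PreL to LZ in WT, and in that fit 2 were higher from SPG to PreL in WT. Over all genes, 737 of 13759 by RPM and 900 of 13530 in that fit were lower from PreL to LZ in WT. From SPG to PreL in WT, 483 of 13530 were higher in that fit. Without the fold threshold, lower and higher members numbered 1 and 5 in SKO SPG, 1 and 2 in SKO PreL, and 4 and 1 in SKO LZ against WT PreL, the higher ones 1 in SKO LZ, and 5 in the step from SPG to PreL in WT and in SKO. With the replicate block, Hormad2 in SKO SPG was at 0.83 and Sycp3 in SKO PreL at 0.93, so that 0 were called in either. From SPG to PreL in SKO, 5 were called with the block, where 38 of 12882 genes were lower and 78 higher. Syce3 in LZ was at -0.94 with the block and not called. For LZ against PreL in WT no paired analysis was possible because the groups share fewer than 2 numbers.

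With each library left out in turn, members called higher ranged from 0 to 1 in SKO SPG, 0 to 2 in SKO PreL, 1 to 2 from SPG to PreL in WT, 1 to 5 in SKO, 0 to 1 from PreL to LZ in WT and 0 to 1 in SKO LZ against WT PreL. Members called lower ranged from 1 to 3 in SKO LZ, 0 to 2 from PreL to LZ in WT, and 1 to 3 in SKO. The interaction of PreL and LZ gave 4 to 6 lower and 1 higher. Without WT PreL replicate 1, Hormad2 was also called in SKO PreL (1.01). The cause of these changes was not tested. SKO LZ, with the fewest reads, limits Hormad2, which rests on 38 to 118 reads per library there.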

Other observations

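Marker genes of somatic cells and of other germ cell stages differed between the genotypes as well. The counts below stand beside 3.95%, 5.32% and 13.4% of all genes called higher in SKO SPG, PreL and LZ, and 2.06%, 5.83% and 25.8% called lower. Of 7 macrophage genes, 5 were called higher in SKO SPG, 1 in SKO PreL and 3 of the 3 tested in SKO LZ, and the summed level in SPG was 63.8 to 129.9 RPM in SKO and 6.82 to 15.8 in WT. Of 7 Leydig cell genes, 5, 6 and 5 were called higher in SKO SPG, PreL and LZ. Of the tested Sertoli cell genes, 1 of 6, 4 of 9 and 2 of 9 were called higher in these stages. Of the tested peritubular myoid genes, 2 of 4 were called higher in SKO SPG, whereas in SKO PreL and SKO LZ 1 of 3, Actg2, was called lower and 0 higher. Among 6 genes of differentiating spermatogonia, 1 was called higher in SKO SPG, and in SKO PreL and SKO LZ Dmrtb1 was called lower and 2 genes of the list higher. Of 10 spermatid genes, 8, 7 and 10 were called lower in SKO SPG, PreL and LZ. Of the tested late spermatocyte genes, 3 of 9, 8 of 9 and 10 of 10 were called lower in these stages. In both lists 0 were called higher.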
